A study of Mus musculus with 5 samples.

Results

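The sites described here are the highest-scoring of a PU.1 binding map: the 429 summits on chromosomes 1 to 19 with a deposited score of 20 or more, out of 10920 summits on those chromosomes (3.93%) and 11111 in the whole list. They were chosen by the score itself, so their height is a description and supports nothing. The map comes from chromatin immunoprecipitation with sequencing (ChIP-seq) of PU.1, with the T-21 antibody, in AML-246, a single mouse acute myeloid leukaemia that is p53-/- and carries shPU.1, a GFP-linked short hairpin RNA against PU.1. Spleen cells of leukaemic C57BL/6 recipients were taken either untreated (PU.1 low, 2 libraries) or after 2 days of doxycycline (Dox), which shuts the hairpin off and restores the endogenous protein (PU.1 high, 3 libraries). Both groups share the leukaemia, the p53 loss and the hairpin, and the libraries are labelled technical replicates. One list, named high versus low, was deposited for all 5 libraries. It holds no value per library and no expression data, so the depth is unknown, the spread between libraries cannot be given, and the labelled cell type could not be checked against markers.

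PU.1, the product of Spi1, is an ETS-family transcription factor that binds purine-rich DNA around the core GGAA. It is required for the myeloid and B cell lineages, where it occupies promoters and, in larger number, distal enhancers of receptor, signalling and effector genes. In acute myeloid leukaemia a low PU.1 level goes with a block of differentiation. The question behind the map was where PU.1 gains binding when its level is restored.

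The deposited score is the −log10 of the p-value or q-value of the peak caller (which of the 2 is not stated), so a score measures how clearly a site stood out and not how much binding rose. The 429 scores ran from 20.02 to 43.3, with a median of 22.9 and quartiles of 21.2 and 25.7, and 299 of them lay under 25, 81 between 25 and 30, and 49 at 30 or more. The other 10491 summits had a median of 8.35. There is no gap at the threshold. Just inside it, sites near Cdc73, in Nckap1 and in Fgd5 all scored 20.02. Just outside it, sites near Zbtb20 and in Ncf4, which encodes part of the NADPH oxidase of phagocytes, scored 19.99, and one in Sh3bgrl2 scored 19.87. Exactly equal scores were common. Of the 429 sites, 355 (82.8%) shared their score with at least 1 other summit, against 95.5% of the other summits. Only 152 different scores occurred among them, and the most frequent, 20.4 and 22.4, stood at 18 sites each. The order of neighbouring ranks is therefore often not defined.

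**Figure D1:**
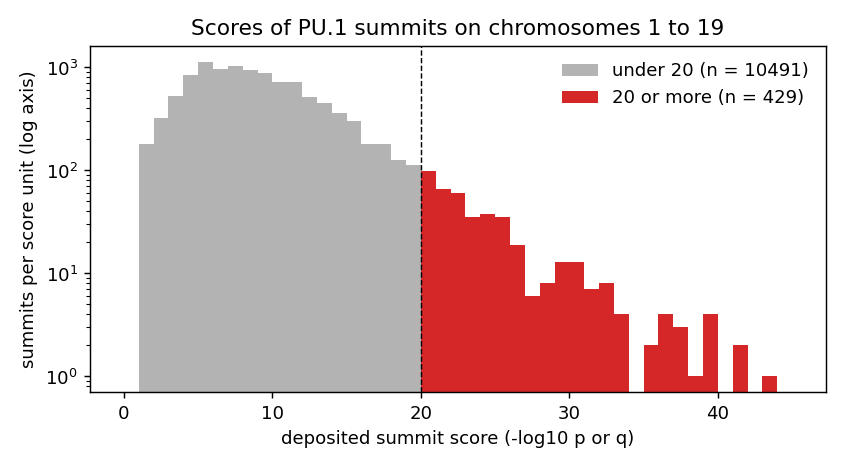
Number of summits per unit of deposited score (x axis, −log10 p or q; y axis on a log scale) on chromosomes 1 to 19. Red bars are the 429 sites of score 20 or more and grey bars the other 10491; the counts fall without a gap at 20 (dashed line) up to the highest score of 43.3.

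Sequence was available for promoter windows, each running from 250 bases before to 50 after an annotated start (RefSeq, GRCm38.p6, whose coordinates are those of mm10). Of the 429 sites, 13 fell into 14 such windows, 1 of them shared by the divergent genes Adk and Ap3m1. The stretches below show the bases up to 40 to each side of the summit, cut at the start of transcription, for 9 of the windows, because they let the PU.1 core be seen next to a mapped summit. The windows not shown include that of Gm52717, whose nearest GGAA lay farther away, at 19 bases. The stretches are written 5′ to 3′ on the strand of the named gene, and capitals mark GGAA, or TTCC where the core lies on the other strand.
Galnt9 (internal start, chr5:110603391-110603471, + strand, score 31.8): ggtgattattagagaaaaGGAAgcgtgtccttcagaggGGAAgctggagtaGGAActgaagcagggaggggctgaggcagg
Iqgap3 (chr3:88081928-88082008, + strand, score 28.8): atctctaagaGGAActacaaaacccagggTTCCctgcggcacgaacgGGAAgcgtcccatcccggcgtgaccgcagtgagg
Psmc2 (chr5:21785240-21785274, + strand, score 28.1): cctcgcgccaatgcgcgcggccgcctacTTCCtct
Eif3d (chr15:77970825-77970878, − strand, score 27.4): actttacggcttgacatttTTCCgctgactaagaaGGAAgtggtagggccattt
Phf11a (chr14:59297561-59297641, − strand, score 26.9): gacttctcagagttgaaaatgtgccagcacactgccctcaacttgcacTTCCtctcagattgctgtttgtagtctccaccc
Ap3m1 (chr14:21052444-21052524, − strand, score 22.4): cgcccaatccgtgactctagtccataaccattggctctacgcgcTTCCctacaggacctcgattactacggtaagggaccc
Inpp4b (chr8:81342358-81342438, + strand, score 21.8): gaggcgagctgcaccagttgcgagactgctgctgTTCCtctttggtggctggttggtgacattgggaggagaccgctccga
Use1 (chr8:71367155-71367216, + strand, score 21.4): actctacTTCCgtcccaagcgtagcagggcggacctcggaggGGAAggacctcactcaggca
Cd5 (chr19:10738983-10739063, − strand, score 21.2): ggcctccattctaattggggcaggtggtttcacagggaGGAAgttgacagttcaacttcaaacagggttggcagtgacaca

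In the promoter of Cd5, which encodes a surface receptor of T cells and some B cells, the summit itself fell on the word GAGGAAGT, 49 bases before the annotated start. In the promoter of Phf11a the same word, on the other strand, lay 6 bases from the summit, and in that of Psmc2, a proteasome subunit gene, it lay 7 bases from a summit that stood 5 bases past the start. In the window of Gm52717, not shown, GAGGAAGT lay 62 bases from the summit. Eif3d, a translation initiation factor gene, had a GGAA 2 bases from its summit, and Inpp4b, a phosphoinositide phosphatase gene, had GAGGAA 1 base away on the other strand.

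Over all 300 bases and on either strand, GGAA (or TTCC) was present in 14 of the 14 windows (100%, 95% Wilson interval 78.5 to 100). So short a word is also present in 95.9% of all 31396 promoter windows of the table. The longer GAGGAA (read as TTCCTC on the other strand), which contains GGAA, was present in 10 of 14 windows (71.4%, 45.4 to 88.3), against 310 of 631 windows with a lower-scoring summit (49.1%, 45.2 to 53.02) and 28.2% of all windows. GAGGAAGT (read as ACTTCCTC on the other strand), which contains both, was present in 4 of 14 (28.6%, 11.7 to 54.6), against 10.1% (8.02 to 12.7) and 3.25%. With 14 windows the intervals overlap those of the lower-scoring summits. The nearest GGAA lay a median of 4 bases from the summit both for these sites and for the lower-scoring ones. In windows that held the longer words, the medians were 17.5 against 15 bases for GAGGAA and 6.5 against 4 for GAGGAAGT. Some of the matches counted were far from the summit, as at Use1, whose nearest GAGGAA lay 219 bases away. A match of letters is not evidence of a bound site, and 416 of the 429 sites could be set against annotated starts at all.

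High-scoring sites were mostly away from genes' ends. Of the 429, 31 (7.23%, 95% Wilson interval 5.14 to 10.1) lay within 1 kb of either end of a protein-coding gene, against 1217 of the 10491 other summits (11.6%, 11.0 to 12.2), and these intervals did not overlap. A position within a gene body, over 1 kb from every end, was held by 204 (47.6%, 42.9 to 52.3), against 46.3% (45.4 to 47.3) of the others, and outside genes at more than 1 kb lay 194 (45.2%, 40.6 to 49.95), against 42.1% (41.1 to 43.03). For these last 2 places the intervals overlapped. Such intervals cover counting error only, and no test was run over sites, since all come from 1 list and none is a replicate of the cells.

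By distance, 11 of the high-scoring sites lay within 100 bp of a gene end, 20 from there to 1 kb, 128 from 1 to 10 kb, 143 from 10 to 50 kb, 70 from 50 to 100 kb and 57 beyond 100 kb. In shares, these bands held 2.56%, 4.66%, 29.8%, 33.3%, 16.3% and 13.3% of them, against 3.97%, 7.64%, 29.2%, 36.3%, 12.1% and 10.8% of the other summits. The intervals of the band from 100 bp to 1 kb (3.04 to 7.09 against 7.14 to 8.16) and of that from 50 to 100 kb (13.1 to 20.1 against 11.4 to 12.7) did not overlap, and those of the other 4 bands did. The median distance was 18.9 kb with quartiles of 5.91 and 60.7 kb, against 15.2 kb (4.10 and 45.5 kb). The longer distance was not particular to the high-scoring sites. For the 898 summits just under the threshold, with scores from 15 to 20, the median was 19.4 kb, and for scores below 5 it was 12.4 kb.

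**Figure D2:**
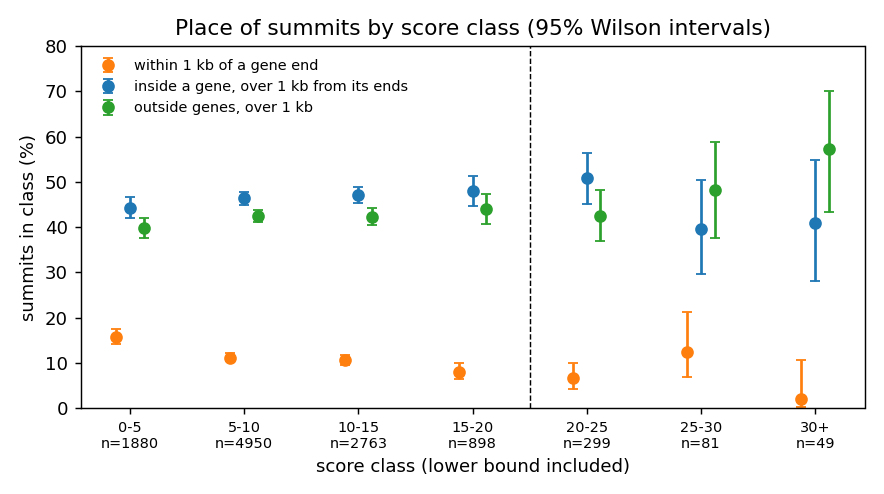
Share of summits (y axis, percent) in 3 places, by class of deposited score (x axis, with the number of summits per class); points are shares and bars 95% Wilson intervals. The share within 1 kb of a gene end runs from 15.8% under a score of 5 to 6.69% from 20 to 25, is 12.3% from 25 to 30 and 2.04% at 30 or more, with wide intervals to the right of the dashed threshold.

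Within the high-scoring sites the share near a gene end did not follow the score in order. It was 6.69% (20 of 299, 4.37 to 10.1) from 20 to 25, 12.3% (10 of 81, 6.85 to 21.3) from 25 to 30, and 2.04% (1 of 49, 0.361 to 10.7) at 30 or more. Those 3 intervals overlap. Under the threshold the share was 15.8% (14.2 to 17.5) for scores below 5, 11.2% from 5 to 10, 10.6% from 10 to 15 and 8.02% (6.42 to 9.98) from 15 to 20. Among the 49 sites of score 30 or more, 28 (57.1%, 43.3 to 69.98) were outside genes. The median distance to the nearest end was 20.7 kb from 20 to 25, 13.03 kb from 25 to 30 and 33.04 kb at 30 or more. It too did not follow the score in order.

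Measured from annotated transcription starts of all gene types instead of gene ends, 30 of 416 high-scoring sites (7.21%, 5.10 to 10.1) lay within 1 kb, against 11.4% (10.8 to 12.1) of 10180 other summits. Within 100 bp of a start lay 2.40% (1.31 to 4.37) against 4.26% (3.89 to 4.67). The downstream end of a protein-coding gene was within 1 kb of 4 high-scoring sites (0.962%, 0.374 to 2.45), against 1.87% (1.62 to 2.15). The table of starts is incomplete. It was used for 416 of the 429 sites, since the starts of 1 chromosome, with the other 13, were not used here, and it covers 25748 genes against 47042 in the gene table. A start that it lacks makes a distance too long, as for the site inside Lyn, whose nearest listed start was 392 kb away.

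Of the high-scoring sites in a gene body, 158 lay in a gene of known strand, a median of 46% of the way from its start to its downstream end, against 42.03% for 3884 other summits. The genes that held high-scoring sites had a median length of 109 kb (n = 223 sites), against 79.1 kb (n = 5456). Of the 206 high-scoring sites outside every protein-coding gene, 39 (18.9%, 14.2 to 24.8) were inside a gene of a long noncoding RNA, close to the 17.7% (16.7 to 18.8) of the others.

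**Figure D3:**
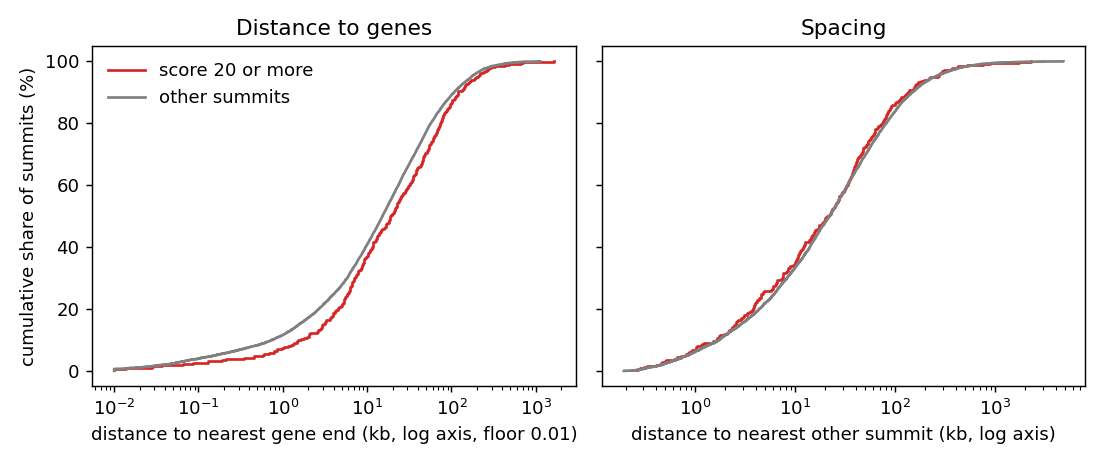
Cumulative share of summits (y axis, percent) by distance in kb on a log axis, to the nearest end of a protein-coding gene (left, distances under 0.01 kb drawn at 0.01) and to the nearest other summit (right). The red line (429 high-scoring sites) lies to the right of the grey one (10491 others) for genes, with medians of 18.9 and 15.2 kb, and runs close to it for spacing, with medians of 20.8 and 21.9 kb.

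Spacing differed little between high-scoring and other sites. The nearest other summit of any score lay a median of 20.8 kb away (quartiles 4.74 and 55.4 kb), against 21.9 kb (6.22 and 63.6 kb). A further summit lay within 25 kb of 228 high-scoring sites (53.1%, 48.4 to 57.8) and of 52.8% (51.8 to 53.8) of the others. At least 4 further summits lay within 25 kb of 20 high-scoring sites (4.66%, 3.04 to 7.09), against 3.69% (3.34 to 4.07). No other summit was within 100 kb of 57 of them (13.3%, 10.4 to 16.8), against 16.1% (15.4 to 16.8). The score of that nearest neighbour had a median of 8.78 at high-scoring sites and 8.64 at the others. A further high-scoring site lay within 25 kb of 14 of the 429 (3.26%, 1.95 to 5.40), close to the 3.93% (3.57 to 4.32) of other summits with a high-scoring site that near. Within 10 kb the shares were 2.33% (1.27 to 4.24) and 1.93% (1.68 to 2.21).

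The 5 closest pairs of high-scoring sites each lay at a single gene. A pair 33.04 and 35.3 kb below Hrh1, a histamine receptor gene, was 2.31 kb apart (scores 31.1 and 22.4). One beside Hivep2 was 2.53 kb apart (22.1 and 20.8). In St3gal4, a sialyltransferase gene, sites of 32.3 and 25.9 lay 5.70 kb apart inside the gene. Beside Krt80, a keratin gene, sites of 39.4 and 20.2 lay 7.22 kb apart with 1 lower-scoring summit between them, and in Ston2 sites of 28.3 and 21.8 were 7.39 kb apart. Only Krt80 and St3gal4 had 2 high-scoring sites within 10 kb of their ends. The other 207 genes with any had 1. By nearest gene end, the 429 sites fell to 407 different genes, 386 of them with 1 site, 20 with 2, and Gm826 with 3, at scores of 34.0, 22.4 and 22.4.

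The sites with the highest scores lay in varied surroundings. The top one (chromosome 1, 165211023, score 43.3) was 1.26 kb below Tiprl, a regulator of protein phosphatases, and had 2 lower-scoring summits within 50 kb, the higher at 8.36. The second (chromosome 19, 9952570, score 41.7) was 28.03 kb below Fth1, the ferritin heavy chain gene, and stood among 6 other summits within 50 kb that reached 19.1. In contrast, the sites near Cracdl (41.5), 3110040M04Rik (39.7), Pde3b (36.6) and Zbtb8b (35.6) had 0 other summits within 50 kb. The site below Lrrk2 (35.1), a kinase gene, had 5 within that distance, none above 9.59. Inside genes were the sites in Cd81 (38.5), a tetraspanin gene, Cmip (37.6), Dscam (36.8), a neuronal adhesion gene, Babam2 and Mycbp2 (33.7 each). The sites near Peli1 (39.6), Krt80 (39.4), Pcnx (37.6), Tmem68 (37.4), Eya1 (36.6) and Gm826 (34.0) were outside genes.

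The site with a score of 39.03 on chromosome 13 (30786299) has Exoc2, an exocyst subunit gene, as its nearest gene at 3.22 kb, but it also lay 19.3 kb above the upper end of Irf4 (chromosome 13, 30749233 to 30766981), a transcription factor gene of lymphoid and dendritic cells. A second high-scoring site (30738634, score 26.9) lay 10.6 kb below the start of Irf4. The gene is thus flanked by a pair of high-scoring sites 47.7 kb apart, with none within 10 kb of its own ends. Irf4 was singled out after its values were seen.

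The site farthest from the ends of protein-coding genes was also isolated from other summits. It stood on chromosome 3 at 48101073 with a score of 36.6, 1642 kb below Pcdh18 and 2282 kb from the nearest other summit. The next farthest sites from a gene end scored near the threshold: one 709 kb below Cdc73 (20.02), with another summit 1.02 kb away, and one at 673 kb from the nearer end of Magi2 (20.2), which itself lies within that gene.

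Of the 31 high-scoring sites within 1 kb of a gene end, 17 were at the end where transcription starts and 4 at the downstream end, while for 10 the gene's strand was not in the promoter table. The highest score among them, 30.8, stood 29 bp inside the lower end of Hif1a, the gene of an oxygen-regulated transcription factor. It was followed by Olfr111 (29.4, at 988 bp), an olfactory receptor gene, Iqgap3 (28.8, at 34 bp), a scaffold gene, Psmc2 (28.1), Eif3d (27.4), Phf11a (26.9) and Spata6 (26.9, at 534 bp). A site of 26.0 lay 374 bp from the start of Fcer1g, the shared signalling chain of Fc receptors. Slc16a7 (25.9, at 585 bp), a monocarboxylate transporter gene, and Irgc1 (25.9, at 86 bp) completed the 10 highest. For Hif1a and Olfr111 the promoter table gives another start, 6.51 and 5.19 kb from the site.

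Few genes had a high-scoring site close by. Of 20665 protein-coding genes, 209 (1.01%) had one within 10 kb of either end, whereas 4757 (23.0%) had a summit of any score. Of those 4757, 4.39% (3.85 to 5.01) had a high-scoring one. In 8 lists of myeloid genes pooled (markers, granule genes, receptors, signalling, cytokines, antigen presentation, lysosome and transcription factors; 225 genes), 10 had a high-scoring site (4.44%, 2.43 to 7.99) and 148 had any (65.8%, 59.4 to 71.7), both above the shares over all genes. Among the 148, the share with a high-scoring site was 6.76% (3.71 to 11.99), an interval that includes the 4.39% of all genes with a site. The lists were drawn up with earlier results of these data known.

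**Figure D4:**
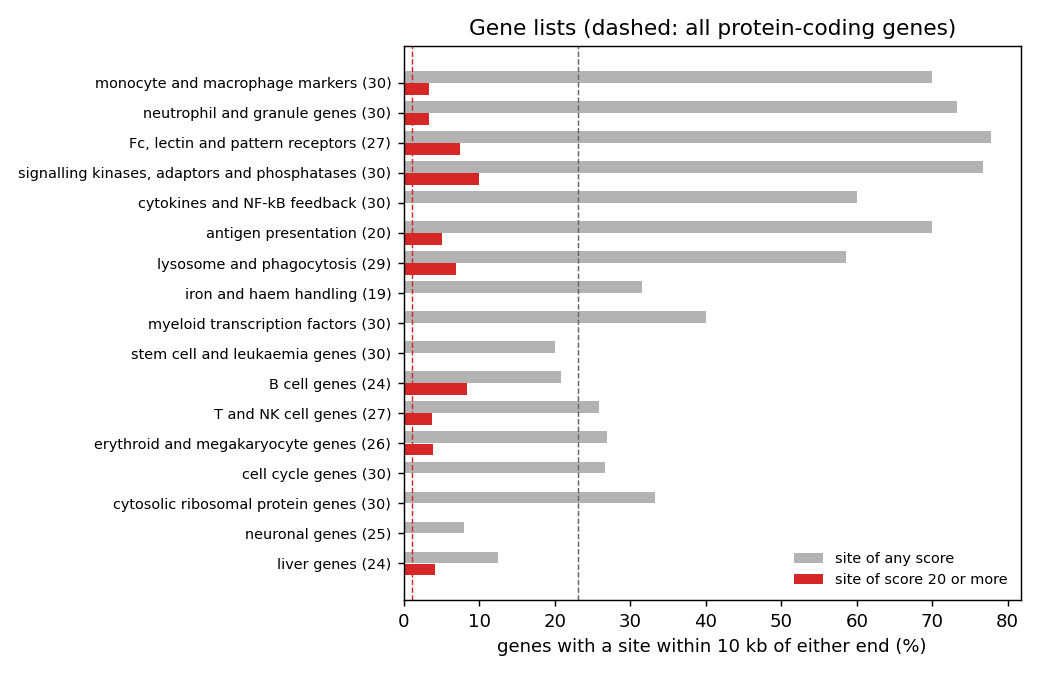
Share of genes in each of 17 lists (y axis, matched genes in brackets) with a summit of any score (grey bars) or of score 20 or more (red bars) within 10 kb of either gene end (x axis, percent). Dashed lines give the shares over all protein-coding genes, 23.0% and 1.01%; grey bars of the myeloid lists that were pooled reach 40% to 77.8%, and the longest red bar, of the signalling list, stands at 10%.

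Among receptors, Fcer1g (26.0) and the lectin receptor gene Clec4a2 (21.8, 0.596 kb inside its start) were the 2 of 27 genes with a high-scoring site in the list of Fc, lectin and pattern receptors, in which 21 had any site. In the monocyte and macrophage list 1 of 30 had one, Marco, a scavenger receptor gene (chromosome 1, 120474538 to 120505024), with a score of 29.8 at 7.01 kb below the gene; 21 had any. In the antigen presentation list 1 of 20 had one, Cd83, an activation marker of dendritic cells, with 28.1 inside the gene; 14 had any.

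The list of signalling kinases, adaptors and phosphatases had the most, 3 of 30, with 23 carrying any site. Vav1 (22.6), a guanine nucleotide exchange factor, Lcp2 (21.8), an adaptor downstream of Syk, and Lyn (20.3), a Src-family kinase, each held theirs inside the gene and between 6.06 and 7.68 kb from its lower end. In the lysosome and phagocytosis list 2 of 29 had one, the cathepsin genes Ctsd (24.04) and Ctsh (21.4).

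No gene of the lists of cytokines and NF-kB feedback, iron and haem handling, myeloid transcription factors, stem cell and leukaemia, cell cycle, cytosolic ribosomal protein and neuronal genes had a high-scoring site within 10 kb (0 of 30, 19, 30, 30, 30, 30 and 25). They carried lower-scoring ones in 18, 6, 12, 6, 8, 10 and 2 genes. Of 24 B cell genes, 2 had a high-scoring site and 5 had any. Rag2 (20.6, at 4.42 kb), a recombinase gene, was among the 2, through a site inside Iftap, 0.752 kb from a listed start of Iftap. Cd5 (21.2) made 1 of 27 T and NK cell genes, and Vwf (20.4) 1 of 26 erythroid and megakaryocyte genes. A higher site of 24.3 also lay inside Vwf, 35.1 kb from its nearer end. Apoa2 made 1 of 24 liver genes, through the site it shares with Fcer1g at 8.34 kb. With a background of 1.01%, 1 or 2 genes in a list of this size are too few to read as a difference.

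Myeloid transcription factor genes had no high-scoring site within 10 kb but some farther out. The following genes were chosen after their values were seen. Of 30 myeloid factor genes, 4 had a high-scoring site within 50 kb, where the share over all protein-coding genes was 3.25%, and 23 had any summit. For any summit within 50 kb the share over all genes is not given here. Such a summit was also present at 20 of 30 cell cycle and 19 of 30 ribosomal protein genes, and at 8 of 25 neuronal genes. The 4 were Irf4, Cebpb (21.4 at 11.3 kb above the gene), Fos (20.4 at 18.9 kb below its start) and Klf2 (23.4 at 28.6 kb above, inside Eps15l1). This count was not particular to the factors. Within 50 kb the signalling list had 6 of 30 and the cytokine list 5 of 30, while the monocyte and neutrophil lists had 2 of 30 each. Beyond 50 kb, the nearest gene was Cebpb again for a site of 20.5 at 109 kb, Zeb2 for one of 25.2 at 119 kb and Id2 for one of 30.8 at 282 kb. Of the cytokine genes, Il6 had one of 24.0 at 44.5 kb below its start, and a single site of 22.9 lay within 50 kb of Ccl6, Ccl9, Ccl3 and Ccl4. At Spi1 itself the nearest high-scoring site was 1009 kb from the gene, while a summit of score 8.31 lay 1.40 kb from it. At Trp53, the gene lacking in these cells, the nearest high-scoring site was 8404 kb away.

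High-scoring sites were spread over all 19 autosomes. Their share of a chromosome's summits ran from 2.91% (20 of 688, 1.89 to 4.45) on chromosome 11 to 5.24% (25 of 477, 3.57 to 7.62) on chromosome 12, and every chromosome's interval included the overall 3.93%.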

How the data were processed

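PU.1 ChIP-seq summits of 5 libraries (3 PU.1 high, 2 PU.1 low) were deposited as 1 list. The submitters' processing notes name CASAVA 1.8.2, MACS2 and build mm10. No source used here gives the aligner, the version or options of MACS2, or how technical replicates were used. The value the authors deposited per summit is a −log10 p-value or q-value. Summit positions were read as the second column plus 1. Sites of score 20 or more on chromosomes 1 to 19 were compared with all others in place, spacing and nearest genes, using RefSeq genes of GRCm38.p6 (20665 protein-coding genes, 47042 of every type) and its promoter table (31396 windows). Gene end means the lower or upper coordinate of a gene. Of 472 different list genes, 460 were matched; the rest were not analysed here.

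Values are counts, shares with 95% Wilson intervals, medians and quartiles. Sites are not replicates, so no p-value was computed. Distances and counts were tested on simulated sites of known place. Computations used Python 3.11.15, numpy 2.4.6, pandas 2.3.3 and scipy 1.17.1, and figures matplotlib 3.10.9. Named were the 20 highest sites (with ties), the 3 to each side of the threshold, the 10 highest within 1 kb of a gene end, list genes with a high-scoring site within 10 kb (at most 5 per list), the 5 genes with most high-scoring sites, the 5 closest pairs, the 3 farthest sites, Spi1 and Trp53; others are said to be chosen later. A few genes that this rule names are not reported here. Members and lists were chosen with earlier results of these data known. Alternatives changed the score threshold, window, gene types and reference point.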

Additional observations from a re-analysis of the deposited data

How the results depend on the processing

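Of 24 alternatives, 12 left the value within the 95% interval of the reported one, among them annotated starts in place of gene ends for both measures (from a table that lacks many starts) and a threshold of 15 for all 5 measures of place and spacing. With the ends of genes of every type, the share of high-scoring sites within 1 kb was 11.7% instead of 7.23% (others 16.6%) and the median distance 7.80 kb instead of 18.9 kb (others 7.06 kb), since more ends were counted. With a threshold of 25, the share near a gene end was 8.46%, against 11.5% of the summits below 25. Restricted to a score of 30 or more, it was 2.04% (1 of 49, 0.361 to 10.7). At 25 or more (130 sites), the share inside genes was 40% instead of 47.6% and that outside genes 51.5% instead of 45.2%; the cause was not tested. A further summit lay within 10 kb of 34.7% and within 50 kb of 72.5% of high-scoring sites, against 53.1% within 25 kb. The share of genes with a high-scoring site, 1.01%, was 0.174% within 1 kb, 3.25% within 50 kb, 1.61% with gene spans plus 10 kb, 0.290% at a score of 25 or more and 3.08% at 15 or more, as fewer or more sites and bases enter. Annotated starts and the score bands of 20 to 30 and 30 or more were chosen after seeing the data. No paired analysis was possible because the list holds no values per library. Leaving out a replicate was likewise not possible, and the depth is unknown.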

Other observations

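Other high-scoring sites lay at genes of immune cell surface proteins and of other proteins outside the lists above, all picked after their values were seen and none tested. In the Slam receptor family, a site of 29.6 lay inside Slamf1 and one of 24.6 at 0.211 kb inside the start of Slamf6, 132 kb apart. Cd180, a Toll-like receptor homologue, had one of 23.1 at 3.85 kb before its start and 5 other summits within 50 kb, and Il1r2, the decoy receptor of interleukin-1, one of 21.5 inside the gene. Havcr2, an inhibitory receptor gene, held one of 21.4, and Ptprc, the gene of CD45, one of 21.1. Mcl1, an anti-apoptotic gene of the Bcl2 family, had one of 29.7 at 4.17 kb.

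Chromosome X, which entered no comparison, had 3 summits of score 20 or more among 186. They scored 35.1, 28.0 and 20.4. The highest, at 13616899, lay inside Cask and 5.75 kb from Gpr34, the gene of a receptor of macrophages and microglia. The others lay inside 5430427O19Rik and Arhgef6.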
